A study of Homo sapiens with 12 samples.

Results

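The genes described here encode the replication-dependent core histones H2A, H2B, H3 and H4 and the linker histones H1. They were chosen by name, as genes whose current symbol starts with H1-, H2AC, H2BC, H3C or H4C, and by detection, with a probe above the negative control beads (detection p under 0.01) on at least 2 of 12 arrays. Of 72 such genes with a probe of their own, 34 met the second condition, out of 11164 genes tested in all. They were 3 of 9 H1 genes, 8 of 17 H2A genes, 6 of 18 H2B genes, 9 of 13 H3 genes and 8 of 15 H4 genes. The detection condition used the same arrays, so the 34 are the genes that could be seen in these cells and not the whole family. Of the other 38 genes, 32 were detected on no array and 6 on 1 array (H2AC4, H2AC8, H2BC3, H2BC7, H2BC14 and H3C4). Just inside the limit were H3C1 and H3C15, each detected on 2 arrays, and 18 of the 34 were detected on all 12.

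RNA was measured on Illumina HumanHT-12 v4 bead arrays in 22Rv1, a cell line from a human prostate carcinoma. There were 6 groups of 2 arrays, taken from 3 sublines. The HNF4Gsh1 subline (hairpin 1) and the HNF4Gsh2 subline (hairpin 2) carried doxycycline-inducible short hairpin RNAs against HNF4G, which encodes a DNA-binding nuclear receptor related to HNF4A, and the SCR subline carried a scrambled hairpin. Each subline was sampled with doxycycline for 3 days and without doxycycline, in medium with serum, so every group carried a hairpin construct. The labels say neither whether a subline is 1 clone, nor which promoter drives the hairpin, nor whether replicates came from separate cultures. The spread behind each p-value is thus that between arrays, and it may be technical.

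Core histones form the protein spool on which DNA is wound, and linker histones bind the DNA where it enters and leaves that spool. Most of their genes lie in clusters and are copied during S phase, when newly made DNA needs new histones. Their messenger RNAs mostly end in a stem-loop bound by SLBP and carry no poly(A) tail, although polyadenylated transcripts have been described for some members, such as H2BC21, H2AC6, H2BC12, H2BC5 and H1-2, and H1-10 is made outside S phase. The labelling here began with an oligo(dT) primer, per the labels, and such a primer needs a run of A bases. The measured levels therefore stand for whatever part of each gene's RNA could be copied in this way. In a culture, fewer cells in S phase and less RNA per cell cannot be told apart.

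In the coordinates of GRCh38.p14, 22 of the 34 genes lay on chromosome 6, between positions 26017032 and 27893185. A further 10 lay in a cluster on chromosome 1, between positions 149813225 and 149887965 (H3C13, H4C14, H3C14, H2AC18, H4C15, H2AC19, H3C15, H2BC21, H2AC20 and H2AC21). H2AC25 lay elsewhere on chromosome 1 and H1-10 on chromosome 3. The 250 bases before the start of 4 genes are printed because these genes, or their near-identical neighbours, rose in the hairpin 2 subline. They are from RefSeq (GRCh38.p14), run 5′ to 3′ on the gene's strand, and capitals mark the octamer ATTTGCAT, the CCAAT box and the TATAAA box on either strand. H2BC21 (histone H2B) has chr1:149886683-149886932 on the minus strand, H2AC6 (H2A) has chr6:26123922-26124171 on the plus strand, H2AC18 (H2A) has chr1:149842751-149843000 on the minus strand and H4C14 (H4) has chr1:149832407-149832656 on the plus strand.
H2BC21: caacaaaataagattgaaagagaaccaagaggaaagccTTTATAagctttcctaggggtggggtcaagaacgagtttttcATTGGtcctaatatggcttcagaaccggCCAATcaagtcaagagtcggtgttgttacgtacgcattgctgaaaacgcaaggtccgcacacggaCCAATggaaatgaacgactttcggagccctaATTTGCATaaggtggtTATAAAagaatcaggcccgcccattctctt
H2AC6: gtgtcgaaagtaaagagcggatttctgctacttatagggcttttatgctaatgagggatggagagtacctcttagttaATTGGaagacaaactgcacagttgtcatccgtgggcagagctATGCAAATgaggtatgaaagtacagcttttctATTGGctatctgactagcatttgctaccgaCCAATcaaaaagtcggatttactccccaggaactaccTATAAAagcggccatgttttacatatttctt
H2AC18: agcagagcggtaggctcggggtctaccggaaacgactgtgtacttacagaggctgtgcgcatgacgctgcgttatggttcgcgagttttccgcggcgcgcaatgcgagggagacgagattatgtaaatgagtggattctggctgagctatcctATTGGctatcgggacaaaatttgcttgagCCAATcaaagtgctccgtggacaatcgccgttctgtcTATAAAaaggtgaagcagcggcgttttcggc
H4C14: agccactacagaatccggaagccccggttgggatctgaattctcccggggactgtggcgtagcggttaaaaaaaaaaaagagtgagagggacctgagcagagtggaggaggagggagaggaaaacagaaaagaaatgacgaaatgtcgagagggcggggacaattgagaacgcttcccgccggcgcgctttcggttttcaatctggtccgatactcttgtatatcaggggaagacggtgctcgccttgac

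These sequences differed in the letters searched. H2BC21 held 1 octamer, 46 bases before the start, with 3 CCAAT boxes and 2 TATAAA boxes. H2AC6 held 1 octamer on the opposite strand, 130 bases before the start, with 3 CCAAT boxes and 1 TATAAA box. H2AC18 held 2 CCAAT boxes and 1 TATAAA box and no octamer, and H4C14 held none of the 3 motifs. The window of H4C15 was identical to that of H4C14 at all 250 bases, and that of H2AC19 was identical to that of H2AC18 over 249 bases after a shift of 1 base. Of the 33 genes of the set with a RefSeq window, 10 held the octamer, all of them H2A (5 of 8) or H2B (5 of 6) genes, against 1.66% of 27305 promoters of the same length. The CCAAT box stood in 25 of the 33 and in 33.0% of all promoters. The TATAAA box stood in 26 of the 33 and in 11.1% of all promoters. The windows of H2BC21 and H2AC20, of H2AC6 and H2BC4, and of H2AC11 and H2BC11 overlap. A site in a shared stretch was counted for both genes of such a pair. The octamer of each of these pairs is 1 shared site, so the 10 genes hold fewer than 10 separate octamers. The HNF4 motif CAAAGTCCA was found in 0 of the 33 and in 0.293% of all promoters, and no match of different motifs overlapped another in the 33 windows. These matches describe letters and not bound sites.

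The knockdown was checked in every array. HNF4G had normalized log2 intensities of 4.73 and 4.83 in the hairpin 1 subline with doxycycline, against 6.30 and 6.18 without it. It had 4.71 and 4.35 in the hairpin 2 subline with doxycycline, against 6.40 and 6.49 without it, and 5.81 and 6.19 in the scrambled subline with doxycycline, against 6.35 and 6.13 without it. The 4 induced HNF4G hairpin arrays were below background, so the folds are bounds. HNF4G was at least 2.08-fold lower with hairpin 1 (limma, adjusted p = 8.01e-04) and at least 2.48-fold lower with hairpin 2 (adjusted p = 8.5e-05). Against the scrambled response, by limma's test of the difference, HNF4G passed with hairpin 2 (adjusted p = 0.0112) and not with hairpin 1 (adjusted p = 0.0664). Over the 12 arrays the mean intensity ran from 278 to 407, the number of detected probes from 14959 to 18293 and the number of detected histone genes from 20 to 31. The scrambled array with doxycycline, replicate 1, was the dimmest. Of the luminal prostate markers, 9 of 11 were among the genes tested, against 1 of 6 basal, 3 of 7 fibroblast and 2 of 7 blood markers.

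The question of each comparison within a subline was what doxycycline, and with it the hairpin, changed over 3 days. In the hairpin 2 subline 6 of the 34 histone genes rose and 0 fell by limma's moderated test with Benjamini-Hochberg adjustment over all genes. Of all genes tested, 2.07% passed in this comparison, and 0.645% passed as higher and 1.42% as lower. The 6 were the H2A genes H2AC6, H2AC18 and H2AC19, the H2B gene H2BC21 and the H4 genes H4C14 and H4C15, with rises of 1.64-fold to 3.77-fold. The median log2 change was 0.185 over the 34 histone genes and 0.006 over all genes tested. Of the 34 changes 24 were above 0, where 51% of those of all genes were. Both doxycycline arrays lay above both arrays without it for 17 of the 34 genes and below for 6. Of all genes, 24.6% and 23.6% did so. The genes below included H3C2, H3C3, H3C15 and H4C2. These and H3C1 met the detection condition only through the uninduced hairpin 2 arrays, which favours lower values with doxycycline. The counts of signs and of separate groups are thus a description.

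In the hairpin 1 subline 0 of the 34 histone genes passed, where 1.06% of all genes did (0.833% as lower). An unadjusted p under 0.05 was found for 5 of the 34, where 1378 of all 11164 genes had one. The median log2 change was -0.137 over the 34 and 0.012 over all genes tested. Of the 34 changes 25 were below 0, where 5373 of those of all 11164 genes were. Both doxycycline arrays lay above both arrays without it for 4 of the 34 and below for 8, where 23.3% and 20.5% of all genes did so. In the scrambled subline 0 of the 34 passed, where 0.0269% of all genes did, and 1 had an unadjusted p under 0.05, where 1076 of all genes had one. The median log2 change there was -0.013 over the 34 and -0.006 over all genes tested, and both doxycycline arrays lay above both others for 5 of the 34 and below for 5, where 18.2% and 20.1% of all genes did so. The hairpin 2 column of the heat map therefore holds every call within a subline.

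**Figure D1:**
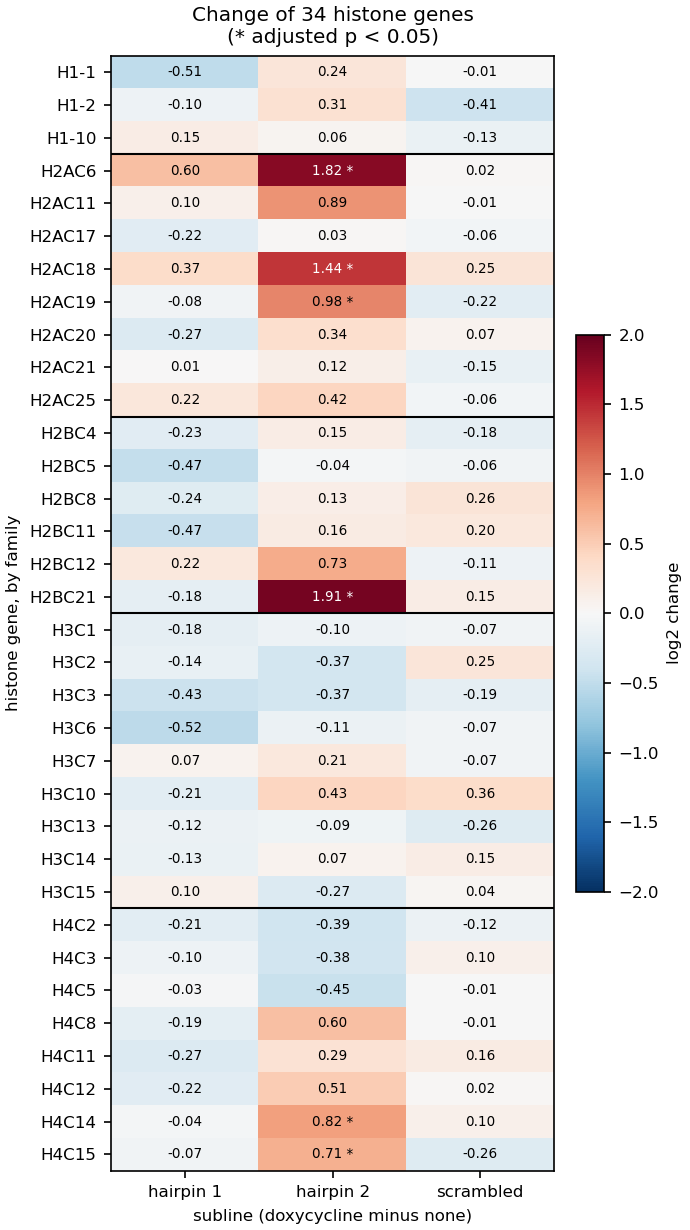
Log2 change with doxycycline (doxycycline minus none, 2 arrays a group) of the 34 histone genes, in rows by family, in the hairpin 1, hairpin 2 and scrambled sublines, in columns. Colour and number give the change, and an asterisk marks an adjusted p under 0.05. The 6 marked cells, from 0.71 to 1.91, all stand in the hairpin 2 column.

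H2A genes, whose products pair with H2B in the outer part of the spool, included 3 of the 6 rises. H2AC18 had normalized log2 intensities of 9.69 and 9.91 in the hairpin 2 subline with doxycycline, against 8.51 and 8.22 without it. It had 8.81 and 8.81 in the hairpin 1 subline with doxycycline, against 8.64 and 8.25 without it, and 8.32 and 8.32 in the scrambled subline with doxycycline, against 8.24 and 7.89 without it. The 2 induced hairpin 2 arrays of H2AC18 were above the other 10, and the doxycycline arrays were higher than those without it in each subline. H2AC18 rose by 1.44 ± 0.18 (log2 change ± SE, 2.7-fold, adjusted p = 7.04e-04) with hairpin 2, and its changes of 0.37 with hairpin 1 and 0.25 in the scrambled subline did not pass. A second H2AC18 probe changed by 1.39 ± 0.23 with hairpin 2 and passed as well (adjusted p = 0.0116 over all kept probes).

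H2AC19, which encodes the same protein as H2AC18 from a neighbouring copy, had 9.64 and 9.62 in the hairpin 2 subline with doxycycline, against 8.66 and 8.63 without it. The other 8 arrays lay between 8.29 and 8.95, so the induced hairpin 2 arrays stood apart from the rest. Its rise was 0.98 ± 0.18 (1.98-fold, adjusted p = 0.0133), and the call was lost without any single hairpin 2 array (adjusted p of 0.0927 to 0.112). H2AC18 and H2AC19 are near-identical copies, and how much of each probe's signal belongs to its own gene is uncertain.

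H2AC6, which encodes a common form of H2A, had 6.71 and 6.85 in the hairpin 2 subline with doxycycline, against 4.59 and 5.33 without it. It had 5.91 and 6.17 in the hairpin 1 subline with doxycycline, against 5.42 and 5.47 without it, and 5.38 and 5.77 in the scrambled subline with doxycycline, against 5.50 and 5.62 without it. The uninduced hairpin 2 arrays were the lowest of the 12, with 1 of them below background (as was 1 scrambled array with doxycycline), and the induced arrays of both HNF4G hairpins were the highest. H2AC6 rose by 1.82 ± 0.22 (3.53-fold, adjusted p = 4.92e-04) with hairpin 2. Because it was detected on only 1 of the 2 uninduced hairpin 2 arrays, that fold is not firm, and it was 3.09-fold with the undetected array set to the lowest detected signal. The size also depended on the background correction, since the log2 change was 0.70 without it and 0.78 in the authors' normalized values, and it passed in both. Its change of 0.60 ± 0.22 with hairpin 1 did not pass (adjusted p = 0.258), and that in the scrambled subline was 0.02. The other 5 H2A genes had changes of 0.03 to 0.89 with hairpin 2, and none of them passed. H2AC11, named after its value was seen, was at the upper end of that range (0.89 ± 0.24, adjusted p = 0.0717).

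Among the 6 H2B genes, H2BC21 alone passed with hairpin 2, and its log2 change was the largest of the 34. It had 9.44 and 9.78 in the hairpin 2 subline with doxycycline, against 7.76 and 7.63 without it. It had 7.34 and 7.73 in the hairpin 1 subline with doxycycline, against 7.73 and 7.70 without it, and 7.25 and 7.67 in the scrambled subline with doxycycline, against 7.43 and 7.18 without it. The 10 arrays other than the induced hairpin 2 pair thus fell within 7.18 and 7.76. The rise was 1.91 ± 0.19 (3.77-fold, adjusted p = 1.3e-04), and the changes of -0.18 with hairpin 1 and 0.15 in the scrambled subline did not pass. H2BC12, another H2B gene named after its value was seen, had 10.88 and 10.65 in the hairpin 2 subline with doxycycline, against 9.82 and 10.25 without it, and did not pass (0.73 ± 0.18, adjusted p = 0.0572). Its second probe changed by 0.43 and did not pass either. H2BC12 did pass under some other settings, such as without background correction and in the authors' normalized values. The other 4 H2B genes (H2BC4, H2BC5, H2BC8 and H2BC11) had changes of -0.04 to 0.16.

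**Figure D2:**
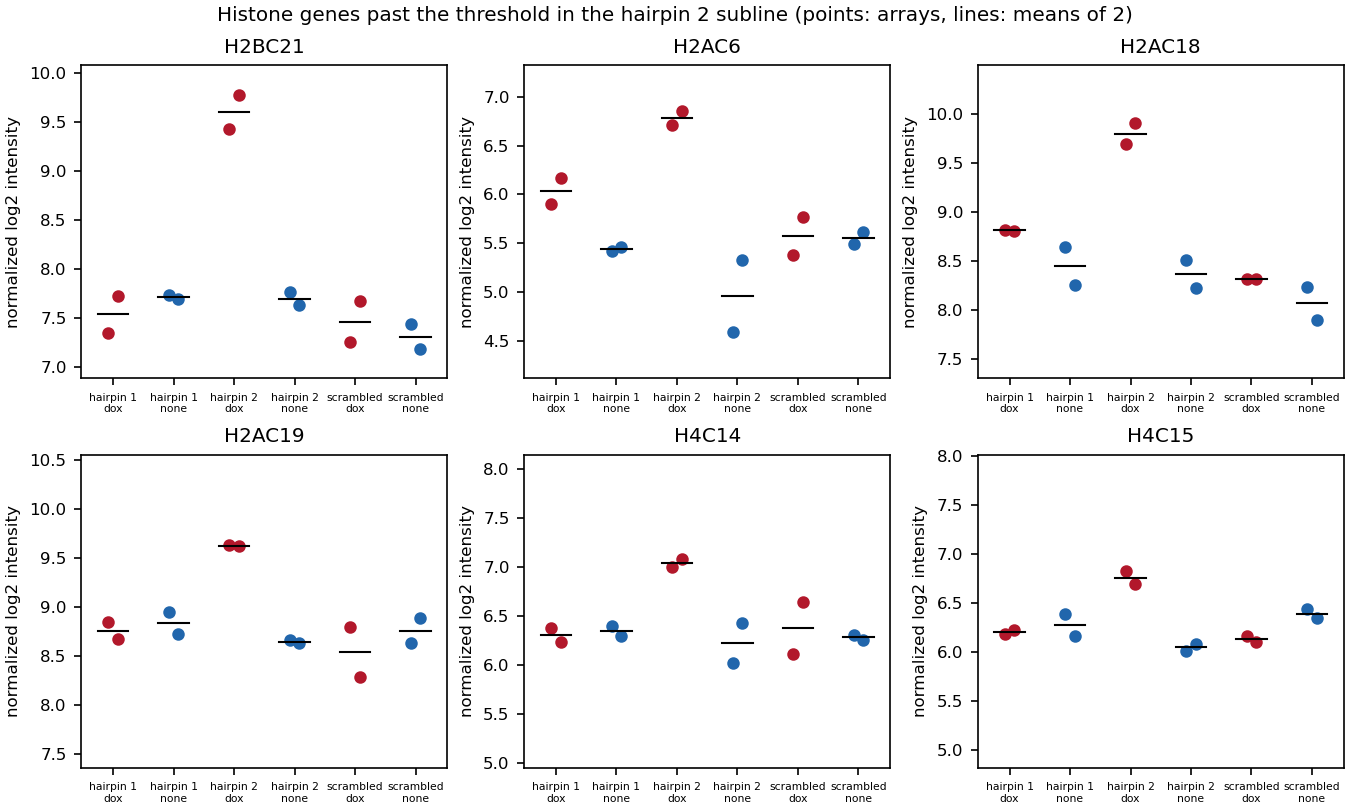
Normalized log2 intensity (vertical axis) of the 6 histone genes that rose in the hairpin 2 subline, in the 6 groups (horizontal axis, dox for doxycycline). Points are arrays, black lines are means of 2 arrays, and every panel spans the same range of log2 units. In each panel the 2 induced hairpin 2 arrays are the highest.

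Nearly all H4 genes encode the same protein, which pairs with H3 in the centre of the spool. H4C14 had 7.003 and 7.09 in the hairpin 2 subline with doxycycline, against 6.02 and 6.43 without it, and the other 8 arrays lay between 6.12 and 6.64. It rose by 0.82 ± 0.19 (1.77-fold, adjusted p = 0.0408; 0.41 without background correction and 0.45 in the authors' normalized values), but passed in only 2 of 12 fits that left out 1 array, those without either scrambled array with doxycycline. In the other 10 fits its adjusted p was 0.0505 to 0.299. H4C15 had 6.83 and 6.69 in the hairpin 2 subline with doxycycline, against 6.01 and 6.08 without it, and the other 8 arrays lay between 6.10 and 6.44. It rose by 0.71 ± 0.15 (1.64-fold, adjusted p = 0.0245; 0.33 without background correction and 0.37 in the authors' normalized values), and the call was lost without any single hairpin 2 array (adjusted p of 0.0973 to 0.187). The induced hairpin 2 arrays were the highest for both genes, which are near-identical copies as well. The annotated span of H4C15 also contains H2AC19 and H3C15 on the other strand.

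None of the other 6 H4 genes passed. H4C8, H4C12 and H4C11 had changes of 0.60, 0.51 and 0.29 with hairpin 2. H4C3 and H4C5 had changes of -0.38 and -0.45. H4C2 was below background on both induced hairpin 2 arrays and has no measurable fold. It met the detection condition only through the uninduced hairpin 2 arrays. H4C3, named after its value was seen, had 13.54 and 13.79 in the hairpin 2 subline with doxycycline, against 13.97 and 14.12 without it (adjusted p = 0.291), so its 2 groups did not overlap although the change missed the threshold.

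None of the 9 H3 genes and none of the 3 H1 genes passed with hairpin 2. The H3 genes had changes of -0.37 to 0.43. Their signs are not read as a fall, since H3C1, H3C2, H3C3 and H3C15 met the detection condition only through the uninduced hairpin 2 arrays. H3C2 and H3C3 were each detected on 1 other array, which alone would not have met it. At the ends of that range were H3C3 and H3C10, and H3C1, H3C2, H3C3 and H3C15 were below background on both induced hairpin 2 arrays. The bounds on a lower level of H3C2 and H3C3 there were only 1.06-fold and 1.01-fold. There was no call, and these bounds are not read as a fall either. H3C1 and H3C15 have no measurable fold. The linker genes H1-1, H1-2 and H1-10 had changes of 0.24, 0.31 and 0.06. H1-10, a linker histone made outside S phase, had 9.73 and 10.00 in the hairpin 2 subline with doxycycline, against 9.85 and 9.75 without it, and these groups overlapped.

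By place, 5 of the 10 genes of the chromosome 1 cluster rose with hairpin 2, against a single gene, H2AC6, of the 22 on chromosome 6, where 0.645% of all genes rose. The median log2 change was 0.529 in the chromosome 1 cluster and 0.155 on chromosome 6. With hairpin 1 the medians were -0.075 and -0.213, and in the scrambled subline they were 0.056 and -0.013. The cluster did not move as a block, since H2AC20, H2AC21, H3C13 and H3C14 had changes of 0.34, 0.12, -0.09 and 0.07 with hairpin 2, none past the threshold. These counts are a description of few genes, of which H2AC18 with H2AC19 and H4C14 with H4C15 are copies of each other. Detection differed too, since many chromosome 6 genes, such as H1-1, H2BC4, H3C1 and H4C2, were near background, where a change is hard to call. Some genes of the cluster, such as H2AC21 and H3C15, were near background as well.

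**Figure D3:**
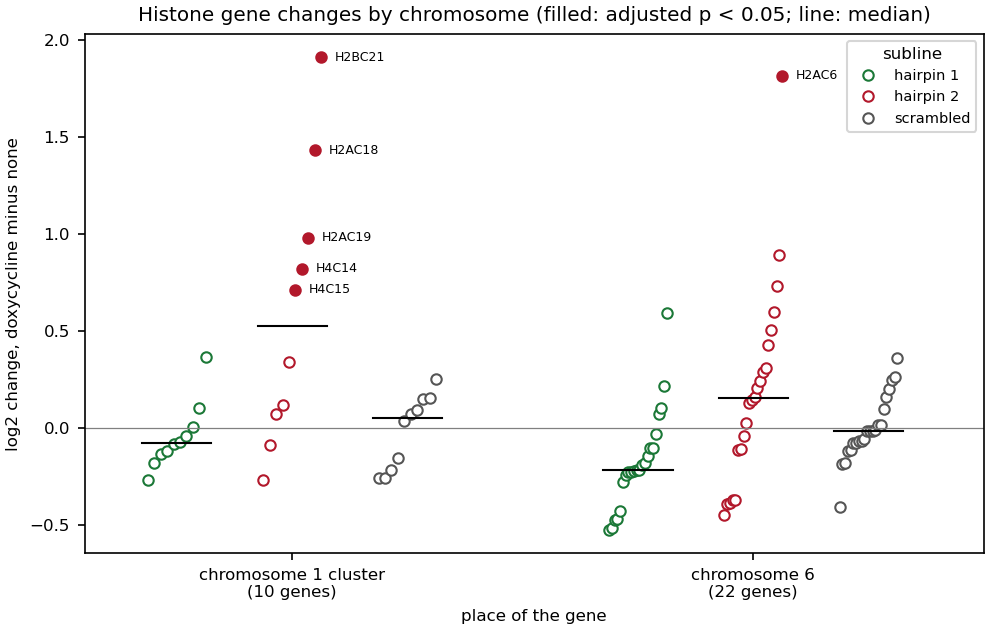
Log2 change with doxycycline (vertical axis) of the 10 histone genes of the chromosome 1 cluster and the 22 on chromosome 6 (horizontal axis), by subline. Points are genes, filled where the adjusted p was under 0.05, and lines are medians. The filled points lie in the hairpin 2 subline, 5 in the chromosome 1 cluster (0.71 to 1.91) and H2AC6 on chromosome 6 (1.82).

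Histone genes often lie head to head, and 3 such pairs were measured. H2BC21 and H2AC20 start 236 bases apart on chromosome 1. With hairpin 2 H2BC21 changed by 1.91, while H2AC20 had 9.49 and 9.31 with doxycycline, against 8.99 and 9.12 without it, a change of 0.34 ± 0.18 that did not pass (adjusted p = 0.371). H2AC6 and H2BC4 start 246 bases apart on chromosome 6. H2AC6 changed by 1.82 with hairpin 2 and H2BC4, which was detected on 5 of 12 arrays, by 0.15 ± 0.31. H2AC11 and H2BC11 start 248 bases apart and changed by 0.89 and 0.16, with no call. In each pair the H2A and H2B genes thus had unlike changes, although the difference within a pair was not tested.

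Whether the hairpin 2 response differed from the others was tested on the responses themselves. Against the scrambled response, 2 of the 34 histone genes were higher and 0 lower, where 0.322% of all genes passed. H2AC6 differed by 1.80 ± 0.31 (adjusted p = 0.0222) and H2BC21 by 1.76 ± 0.27 (adjusted p = 0.0119). The H2AC6 difference was 0.69 without background correction and 0.77 in the authors' normalized values, where it passed as well. The uninduced levels of H2AC6 were 4.59 and 5.33 in the hairpin 2 subline, against 5.50 and 5.62 in the uninduced scrambled subline (-0.60 ± 0.22, adjusted p = 0.332). For H2BC21 the uninduced levels were 7.76 and 7.63 in the hairpin 2 subline, against 7.43 and 7.18 in the scrambled subline. H2AC19 (1.20), H2AC18 (1.18) and H4C15 (0.97) had adjusted p-values of 0.0663, 0.0663 and 0.0657, and H4C14 had a difference of 0.73 (adjusted p = 0.269). Both calls depended on single arrays. H2AC6 was lost without scrambled, no doxycycline, replicate 1 or 2, scrambled, doxycycline, replicate 1, hairpin 2, no doxycycline, replicate 1, or either hairpin 2 array with doxycycline (adjusted p of 0.0549 to 0.12). H2BC21 was lost without scrambled, no doxycycline, replicate 1, or any of the 4 hairpin 2 arrays (adjusted p of 0.0501 to 0.0877).

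Against the hairpin 1 response, H2BC21 was the only histone gene to pass, with a hairpin 2 response higher by 2.09 ± 0.27 (adjusted p = 0.00918), where 0.206% of all genes passed. The difference was above 0 for 28 of the 34 genes, where it was for 49.6% of all genes. That call was lost without hairpin 1, doxycycline, replicate 1, or replicate 2 of either hairpin 2 group (adjusted p of 0.0547 to 0.062). H2AC6 differed by 1.22, H2AC18 by 1.07 and H2AC19 by 1.06, and these did not pass (adjusted p = 0.143, 0.125 and 0.13).

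The mean response of both hairpins differed from the scrambled response for 0 histone genes, where 0.269% of all genes passed (0.0358% as higher). An unadjusted p under 0.05 was found for 7 of the 34, where 1366 of all 11164 genes had one. H2AC6 had the smallest p (1.19 ± 0.27, adjusted p = 0.0933), followed by H4C15 (0.58 ± 0.18, adjusted p = 0.207). Hairpin 1 against the scrambled response gave 0 as well, where 0.314% of all genes passed. There 1 histone gene had an unadjusted p under 0.05, where 1222 of all genes had one. H3C10 (-0.57 ± 0.21, adjusted p = 0.314) and H2BC11 (-0.67 ± 0.36, adjusted p = 0.533) had the smallest p there. All comparisons against the scrambled response share its 4 arrays.

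Within the hairpin 1 subline the smallest p-values belonged to H2BC5 and H3C6. H2BC5, an H2B gene, had 6.55 and 6.53 with doxycycline, against 6.86 and 7.16 without it (-0.47 ± 0.16, adjusted p = 0.222), while its second probe changed by 0.35. H3C6, an H3 gene, had 5.004 and 5.19 with doxycycline, against 5.53 and 5.71 without it (-0.52 ± 0.19). In the scrambled subline they belonged to H3C10 and H1-2. H3C10 had 5.91 and 5.95 with doxycycline, against 5.44 and 5.69 without it (0.36 ± 0.15, adjusted p = 0.461). H1-2, a linker histone, had 8.08 and 8.62 with doxycycline, against 8.87 and 8.64 without it (-0.41 ± 0.21, adjusted p = 0.556), where the first array was the dim one.

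Before induction the sublines did not differ past the threshold at any of the 34 genes. The hairpin 1 subline against the scrambled subline gave 0 calls (0.627% of all genes passed, 0.385% as lower) and 3 unadjusted p-values under 0.05 (1130 over all 11164 genes). The nearest were H3C10 (0.41 ± 0.15) and H3C6 (0.49 ± 0.19, at least 1.28-fold higher, since H3C6 was below background on both uninduced scrambled arrays). The hairpin 2 subline against the scrambled subline gave 0 calls (0.484% of all genes passed) and 5 unadjusted p-values under 0.05 (1237 over all genes). The nearest were H2AC6 (-0.60) and H2BC12 (-0.46 ± 0.18, adjusted p = 0.375). The hairpin 2 subline against the hairpin 1 subline gave 0 calls (0.00896% of all genes passed) and 3 unadjusted p-values under 0.05 (565 over all genes). The nearest were H3C15 and H2BC12 (-0.42 ± 0.18, adjusted p = 0.951). H3C15 has no measurable fold there, since it was among the 34 genes only through the uninduced hairpin 2 arrays and was below background on both uninduced hairpin 1 arrays.

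The genes that process, carry and accompany histones in S phase were set beside the family in the hairpin 2 subline. Of 43 measured genes of S phase and DNA replication, 0 rose and 1 fell, where 1.42% of all genes fell, with a median log2 change of -0.222, against 0.006 over all genes. A share of 1 in 43 is near that background. Their changes were below 0 for 39 of the 43, where those of 5468 of all 11164 genes were. An unadjusted p under 0.05 was found for 12, all of them lower, where 873 of all genes were lower at that level. With hairpin 1, where no histone gene passed, the median of the same list was -0.095, with 35 of 43 below 0 (5373 of all genes). In the scrambled subline it was 0.004, with 21 of 43 below 0 (5686 of all genes). The gene that fell was CCNE1, cyclin E1, which drives entry into S phase. CCNE1 had 6.58 and 6.37 with doxycycline, against 7.16 and 7.18 without it (-0.70 ± 0.16, adjusted p = 0.0377), and its response did not differ past the threshold from the scrambled response (-0.78, adjusted p = 0.159). The part of these changes in the rise of the histone genes was not tested.

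Of 17 measured genes that act on histone messenger RNA, none passed (median -0.141). An unadjusted p under 0.05 was found for 3, all lower, where 873 of all 11164 genes were lower at that level. SLBP, which binds the stem-loop, changed by -0.43 ± 0.16 with hairpin 2 (adjusted p = 0.212), and NPAT, which activates histone genes, by -0.14 ± 0.19 (adjusted p = 0.774). ERI1, a nuclease that trims the stem-loop end, had the smallest p of the list (adjusted p = 0.0815). Of 26 measured histone chaperones and their partners, 1 fell, where 1.42% of all genes did. It was RBBP4, a histone-binding subunit of chromatin assembly factor 1, with 8.37 and 8.38 with doxycycline, against 9.30 and 9.10 without it (-0.83 ± 0.16, adjusted p = 0.0166). With hairpin 1 RBBP4 had 8.45 and 8.61 with doxycycline, against 9.25 and 9.01 without it, a change of -0.60 ± 0.16 that did not pass (adjusted p = 0.0959). The hairpin 2 response of RBBP4 did not differ past the threshold from the scrambled response (-1.105, adjusted p = 0.0574).

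Of 10 measured core histones listed as replication-independent, 1 rose with hairpin 2, where 0.645% of all genes did. Most of the 10, though not all, are made throughout the cell cycle and from polyadenylated RNA. The gene that rose was H2AJ, an H2A variant known to build up in senescent cells, with 9.02 and 8.80 with doxycycline, against 8.01 and 8.29 without it (0.76 ± 0.17, adjusted p = 0.0364). Both induced arrays were above the other 10. The H2AJ response did not differ past the threshold from the scrambled response (0.79, adjusted p = 0.183). The median of that list was -0.001. The list of genes with described polyadenylated transcripts (6 measured) held 2 of the 6 risen genes, H2AC6 and H2BC21, with a median of 0.523, and its other members H1-2, H1-10, H2BC5 and H2BC12 did not pass. The other 4 risen genes were not on that list. Of the 9 measured luminal prostate markers, 1 rose with hairpin 2, where 0.645% of all genes did, and their median was -0.018. It was FOLH1, the prostate-specific membrane antigen (0.72 ± 0.16, adjusted p = 0.0367). The FOLH1 response did not differ past the threshold from the scrambled response (adjusted p = 0.112). With hairpin 2, 0 measured basal, fibroblast and blood markers passed.

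**Figure D4:**
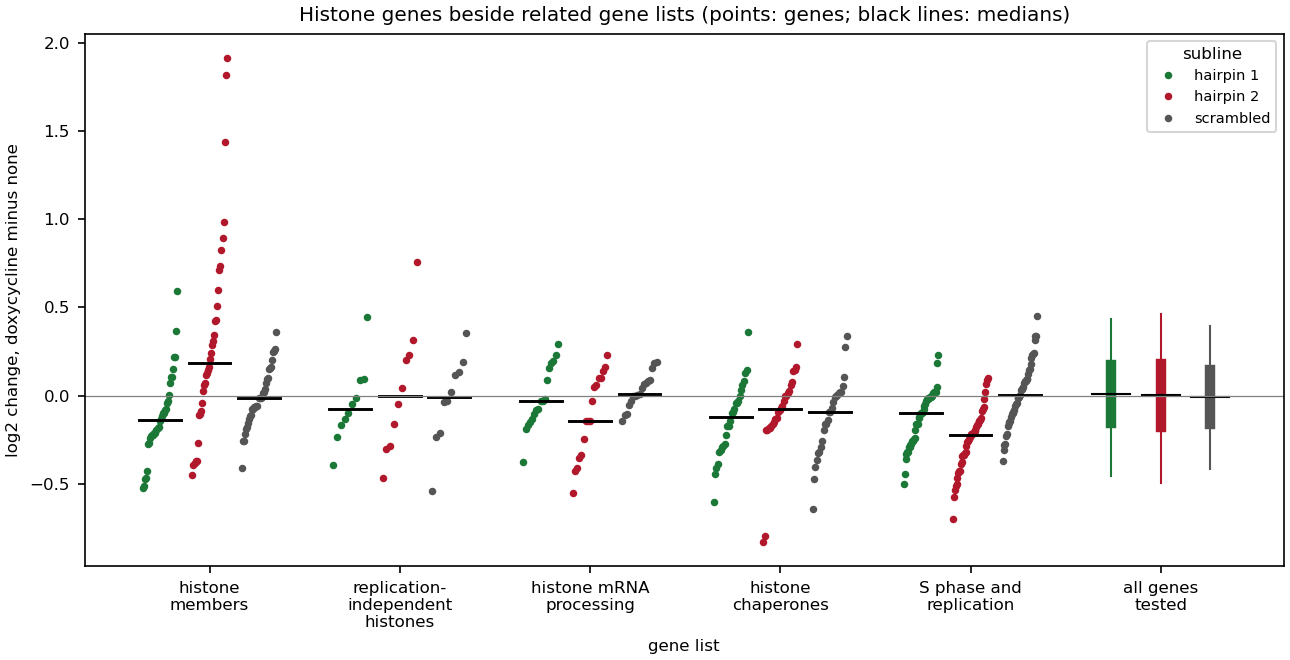
Log2 change with doxycycline (vertical axis) of the 34 histone genes and of 4 related gene lists (horizontal axis), in the hairpin 1, hairpin 2 and scrambled sublines. Points are genes and black lines are medians, and for all genes tested thick bars span the 25th to 75th and thin lines the 5th to 95th percentile. With hairpin 2 the histone median was 0.185 and that of the S phase genes -0.222.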

How the data were processed

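RNA of 22Rv1 sublines was hybridised to 12 HumanHT-12 v4 arrays. The deposited non-normalized table holds each probe's intensity in scanner units and a detection p-value that the authors obtained with BeadStudio, per the submitters' processing notes. Each array's detection column was taken as the one to the right of its intensity, per the file headers. The deposited series matrix holds the authors' own normalized log2 values (Partek, per the same notes), used as an alternative. The versions are not given in the sources used here.

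With limma 3.58.1 in R 4.3.3, neqc (normexp background correction from detection p-values, offset 16, quantile normalization, log2) was applied to the intensities. Probes detected (p under 0.01) on at least 2 arrays were kept, and the probe with the highest mean stood for a gene. Probes with several genes (1 among the histone genes) or none were left out. A model of 6 group means with empirical Bayes moderation gave 10 contrasts, two-sided, adjusted over 11164 genes by Benjamini and Hochberg, with a threshold of 0.05. Second probes were adjusted over 19172 kept probes.

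An "at least" fold sets the brighter group against, per array, the higher of the dim probe's own signal and the lowest signal of any detected probe. Positions and promoters are from RefSeq tables (GRCh38.p14), matched by symbol or gene ID, which changed 0 symbols. H4C3 has no promoter entry.

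The members and lists were chosen with earlier results of these data known. Named in full were members past the threshold in a contrast, or otherwise the 2 with the smallest p, and list genes that passed where a histone gene did. Others were named after their values were seen. In simulated data (11164 genes, 10 simulations) log2 changes of 0.5, 1 and 2 with hairpin 2 were recovered in 15.7%, 90.3% and 100% of changed genes. For hairpin 2 against the scrambled response they were recovered in 2.84%, 38.5% and 99.1%. The simulated noise was normal and independent, on the normalized scale. Background correction and the loss of dim signal were not simulated, so the shares do not cover genes near background. The alternatives were background correction, scaling, the authors' values, probe filters, the probe of a gene, moderation, the arrays fitted, the replicate number as a block, and leaving out each array. Only 2 arrays per group limit the precision of every value.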

Additional observations from a re-analysis of the deposited data

Results flagged for a closer look

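The response of H2AC6 to doxycycline differed between sublines. It was 1.82 in the hairpin 2 subline and 0.02 in the scrambled subline, a difference of 1.80 ± 0.31 by limma's test of the difference (adjusted p = 0.0222). H2AC6 was detected on 1 of the 2 uninduced hairpin 2 arrays, so the size is not firm, and the difference was 0.69 without background correction. The response of H2BC21 differed between the same sublines. It was 1.91 with hairpin 2 and 0.15 in the scrambled subline, a difference of 1.76 ± 0.27 (adjusted p = 0.0119). H2BC21 also differed between the HNF4G hairpins, with a response of 1.91 with hairpin 2 and -0.18 with hairpin 1, a difference of 2.09 ± 0.27 (adjusted p = 0.00918). HNF4G was below background on all 4 arrays of the induced HNF4G hairpins, so its own responses there are bounds.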

How the results depend on the processing

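Without background correction and in the authors' normalized values the changes of H2AC6 (0.70 and 0.78), H4C14 (0.41 and 0.45) and H4C15 (0.33 and 0.37) with hairpin 2 were smaller than with it and still passed. No direction of a called value reversed under any alternative run. The 6 rises with hairpin 2 numbered 4 to 8 under the 9 other settings and 3 to 6 when 1 array was left out. They fell to 3 (H2AC18, H2AC6 and H2BC21) without any of the 4 hairpin 2 arrays. H2AC18, H2AC6 and H2BC21 kept their calls in all 12 such fits, H2AC19 and H4C15 in 8 and H4C14 in 2. H4C14 did not pass with no filter on dim probes (adjusted p = 0.0697), nor did H4C14 and H4C15 with only the arrays compared (0.0603 each). H2BC12 was added without background correction, in the authors' values, with probes detected on 6 or more arrays, and with trend and robust moderation. H2AC11 was added with trend and robust moderation only. The 2 calls of hairpin 2 against the scrambled response became 5 with no background correction, with the authors' normalized values, with probes detected on 6 or more arrays, and with an intensity trend and robust moderation, 3 (with H2AC18) with the mean of a gene's probes, and 1 (H2BC21) with no filter or with only the arrays compared, where H2AC6 had adjusted p = 0.0625 and 0.0504. Leaving out 1 array gave 0 to 2. The 1 call of hairpin 2 against hairpin 1 became 3 with no background correction, the authors' values, or trend and robust moderation, and 0 to 1 without 1 array. The mean hairpin response against the scrambled response gave 1 call in place of 0, H2AC6, with trend and robust moderation (adjusted p = 0.0373) and with the replicate number as a block (adjusted p = 0.0426), and 0 to 1 without 1 array. The replicate block changed no other count of histone calls, with 6 rises with hairpin 2 and 2 against the scrambled response. Same-numbered arrays did not deviate together (r of -0.032 to 0.068 over 15 pairs of groups). This shows no large shift common to them, and it cannot tell whether they were handled together. The cause of these changes was not tested. The other 6 comparisons gave 0 histone calls under every setting. Genes near background, such as H3C1 and H3C15, have no measurable fold.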

Other observations

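The number of histone genes detected varied by array. The same detection p-values chose the 34 genes. H3C1, H3C2, H3C3, H3C15 and H4C2 are among them only through the uninduced hairpin 2 arrays. The counts by array are thus a description and favour that subline. In the hairpin 2 subline, 27 and 29 were above background with doxycycline, against 31 and 29 without it, and the other 8 arrays had 20 to 28. The uninduced hairpin 2 arrays also had the most detected probes of any kind, 18293 and 17346. Of the dim genes, H3C1, H3C2, H3C3, H3C15 and H4C2 were detected on neither induced hairpin 2 array and on both uninduced ones. H4C11 was detected on both induced hairpin 2 arrays and on 1 uninduced one.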
